A study of Homo sapiens with 8 samples.

Results

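ENPP2 and the genes through which its product, lysophosphatidic acid (LPA), is sensed and removed were examined in 2 breast epithelial cell lines with and without forced expression of the long non-coding RNA HOTAIR. The set was fixed by symbol and held 8 genes, ENPP2, the receptors LPAR1, LPAR2, LPAR3 and LPAR6 and the phosphatases PLPP1, PLPP2 and PLPP3. Of these, 7 were among the 13771 genes of the normalised table, and LPAR3 was not analysed here. ENPP2 was chosen because its values in this table were higher in the HOTAIR libraries of both lines, so its values are a description and no test is given for it. The other members were chosen by their role, with earlier results of these data known.

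MCF10A is an immortalised, non-tumorigenic breast epithelial line, and DCIS.COM, derived from that lineage, forms lesions resembling ductal carcinoma in situ. Both carried a stably integrated lentiviral pCDH vector, either empty (pCDH-empty) or carrying HOTAIR (pCDH-HOTAIR), and 2 RNA-seq libraries were made for each of the 4 groups. All 4 groups were selected with 10 µg/ml puromycin and grown in 5% horse serum. The MCF10A medium also held epidermal growth factor, hydrocortisone, insulin, cholera toxin and antibiotics, so cell line and medium cannot be told apart. The sources used here do not state whether the 2 libraries of a group came from separate cultures, so the p-values measure the spread between these libraries, which may be technical.

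ENPP2 encodes autotaxin, a secreted lysophospholipase D that releases LPA from lysophosphatidylcholine outside the cell. LPA acts on a family of G protein-coupled receptors, which signal through several classes of G protein, and it is a constituent of serum. The PLPP enzymes are membrane phosphatases that remove its phosphate at the cell surface and so end the signal.

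Library depth was 19306864 to 34884841 reads, and 3 reads corresponded to 0.0844 to 0.155 CPM (reads scaled to library size) depending on the library. HOTAIR itself had a mean of 1.47 ± 0.0424 CPM (SD, n = 2) in MCF10A pCDH-empty and 240 ± 2.37 CPM (SD, n = 2) in MCF10A pCDH-HOTAIR. In DCIS.COM the means were 4.59 ± 0.895 CPM with the empty vector and 196 ± 7.99 CPM with HOTAIR (SD, n = 2 each). The 8 libraries thus fit their vector labels, and these values do not check the cell line labels. All 6 basal breast epithelial markers examined (EPCAM, CDH1, KRT5, KRT14, KRT6A, TP63) were in the table. Their summed level was 10646 to 12294 CPM in MCF10A and 1428 to 1560 CPM in DCIS.COM, a sum carried by the keratins. EPCAM and TP63 lay in the other order, with 53.7 to 69.8 against 314 to 370 CPM and 11.8 to 17.6 against 19.4 to 30.0 CPM. Of the markers of other cell types, 0 of 5 fibroblast genes were in the table, and the only ones present were PECAM1, CD68 and LPL, 1 each of 4 endothelial, immune and adipocyte genes. PECAM1 had 1.70 to 2.69 CPM in MCF10A and 10.1 to 13.3 CPM in DCIS.COM, CD68 had 19.6 to 23.9 and 4.29 to 5.89 CPM, and LPL had 0 to 0.05 and 0.924 to 1.34 CPM.

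ENPP2 lies on the minus strand of chromosome 8, from 120569326 to 120685693 (hg19), and is listed under Entrez identifier 5168. A processed pseudogene, CYCSP23, lies within it and shares 162 exon bases. In MCF10A pCDH-empty, ENPP2 was covered by 7 and 8 reads, or 0.225 and 0.301 CPM. In MCF10A pCDH-HOTAIR it was covered by 35 and 24 reads, or 1.81 and 1.2 CPM. Both HOTAIR libraries were above both empty-vector libraries although they were the shallower ones.

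In DCIS.COM pCDH-empty, ENPP2 had 2 and 5 reads, or 0.0665 and 0.187 CPM, and the first of these is under the 3-read floor of its library (0.0998 CPM). In DCIS.COM pCDH-HOTAIR it had 18 reads in each library, or 0.506 and 0.536 CPM. The HOTAIR libraries, here the deeper ones, were again above the empty-vector libraries. Over both lines all 4 HOTAIR libraries exceeded all 4 empty-vector libraries, the pattern for which ENPP2 was chosen.

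**Figure D1:**
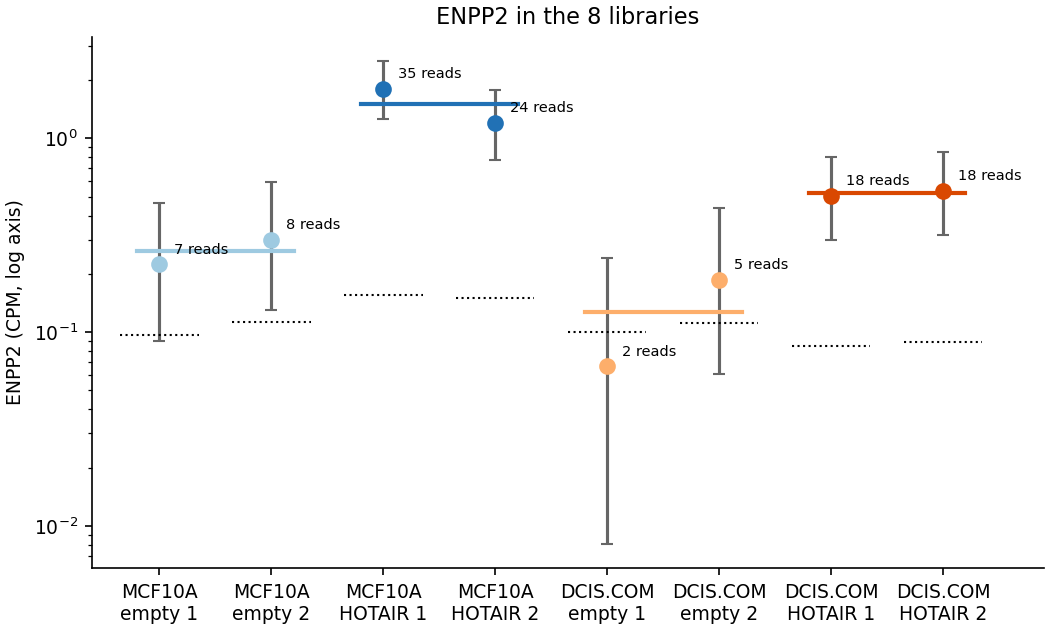
ENPP2 in each library, in CPM on a log axis. Points are libraries with their read counts, bars are exact 95% Poisson intervals, coloured lines are group means and dotted lines mark 3 reads. The HOTAIR libraries lie at 0.506 CPM or higher, the empty-vector libraries at 0.301 CPM or lower, and DCIS.COM pCDH-empty 1 lies under its 3-read line.

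The mean ENPP2 level was 0.263 ± 0.0538 CPM in MCF10A pCDH-empty and 1.5 ± 0.428 CPM in MCF10A pCDH-HOTAIR (SD, n = 2 each). In DCIS.COM it was 0.127 ± 0.0849 CPM with the empty vector and 0.521 ± 0.0213 CPM with HOTAIR (SD, n = 2 each). From the summed reads of the groups, scaled to CPM, ENPP2 was 5.78-fold higher with HOTAIR in MCF10A, with an exact 95% interval of 3.23 to 11.0. In DCIS.COM it was 4.23-fold higher, with an interval of 1.86 to 11.3. These intervals cover counting error only, not the variation between cultures. ENPP2 was chosen for this rise and is in the table only through its HOTAIR libraries. That fixed the direction, so the intervals are not a test of it.

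On the deposited log2 scale, which carries a prior of 0.0717 CPM, the ENPP2 differences were 2.22 in MCF10A and 1.65 in DCIS.COM. Without the prior they were 2.52 and 2.04. The prior pulls a gene of so few reads towards 0, and with 1 CPM added in its place the same differences were 0.98 and 0.44. The fold in DCIS.COM lay within the counting interval of the fold in MCF10A, and no test of the difference between the lines was made.

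Ordered by level, MCF10A pCDH-HOTAIR came first, followed by DCIS.COM pCDH-HOTAIR, MCF10A pCDH-empty and DCIS.COM pCDH-empty. Between the HOTAIR groups, ENPP2 was 2.88-fold lower in DCIS.COM than in MCF10A (counting interval 1.87 to 4.48). Between the empty-vector groups it was 2.11-fold lower in DCIS.COM, and that interval, 0.809 to 6.11, includes no difference. The counting intervals of the DCIS.COM pCDH-HOTAIR and MCF10A pCDH-empty libraries overlap, since those of MCF10A pCDH-empty reach up to 0.463 and 0.592 CPM and those of DCIS.COM pCDH-HOTAIR reach down to 0.300 and 0.318 CPM. None of the 4 empty-vector libraries exceeded 0.5 CPM, the level that all genes of the table pass in at least 2 libraries, so the presence of ENPP2 in the table rests on the HOTAIR libraries. In bulk RNA, fewer expressing cells and less RNA in each cell cannot be told apart.

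Per kilobase of its canonical transcript, ENPP2 stood at 0.0851 CPM in MCF10A pCDH-empty, 0.487 CPM in MCF10A pCDH-HOTAIR, 0.0410 CPM in DCIS.COM pCDH-empty and 0.169 CPM in DCIS.COM pCDH-HOTAIR. On that scale LPAR2 stood at 5.97 to 8.27 CPM over the 4 groups. The enzyme was thus far less abundant as RNA than the leading receptor in every group.

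The genes whose log2 CPM followed ENPP2 most closely over the 8 libraries, among 12899 genes with a mean of at least 1 CPM, were IGFBP3 (Pearson r = 0.97), C1QTNF1 (0.940), CEP70 (0.939), BAIAP2-DT (0.933) and CTSF (0.932). IGFBP3 encodes an insulin-like growth factor binding protein, C1QTNF1 a secreted protein with a C1q-like domain, CEP70 a centrosomal protein and CTSF the lysosomal protease cathepsin F. IGFBP3 had mean log2 CPM of 8.63 and 9.01 in MCF10A without and with HOTAIR and 8.42 and 8.73 in DCIS.COM. All 5 genes had the group order of ENPP2, which is what the ranking selects. The 8 libraries fall into 2 cell lines and 2 vectors and are not independent points, so these values are descriptive.

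The receptors LPAR1, LPAR2 and LPAR6 and the 3 phosphatases were then compared between vectors and between lines with limma over all 13771 genes, with Benjamini-Hochberg adjustment. A gene was called at an adjusted p under 0.05 together with a fold change of at least 1.5. With HOTAIR, 0 of these 6 members were called in MCF10A and 0 of 6 in DCIS.COM, where 0.0218% and 0.0871% of all genes were called. Limma-voom on the recovered whole reads also called 0 of 6 in both lines. At an unadjusted p under 0.05, 2 of 6 passed in each line, beside 7.28% and 17.5% of all genes. The difference of the HOTAIR effect between the lines was called at an adjusted p under 0.05 alone, with no fold limit. It was called for 0 of 6 members (0.0436% of all genes). An unadjusted p under 0.05 was reached there by 0 of 6, beside 10.5% of all genes. Between DCIS.COM and MCF10A, 2 of 6 were called with the empty vector (46.3% of all genes) and 2 of 6 with HOTAIR (43.7% of all genes). The same members were called both times, LPAR1 lower and PLPP2 higher in DCIS.COM. Of these, LPAR1 is in the table only through its MCF10A values, which fixes its direction, so its call is not a test.

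**Figure D2:**
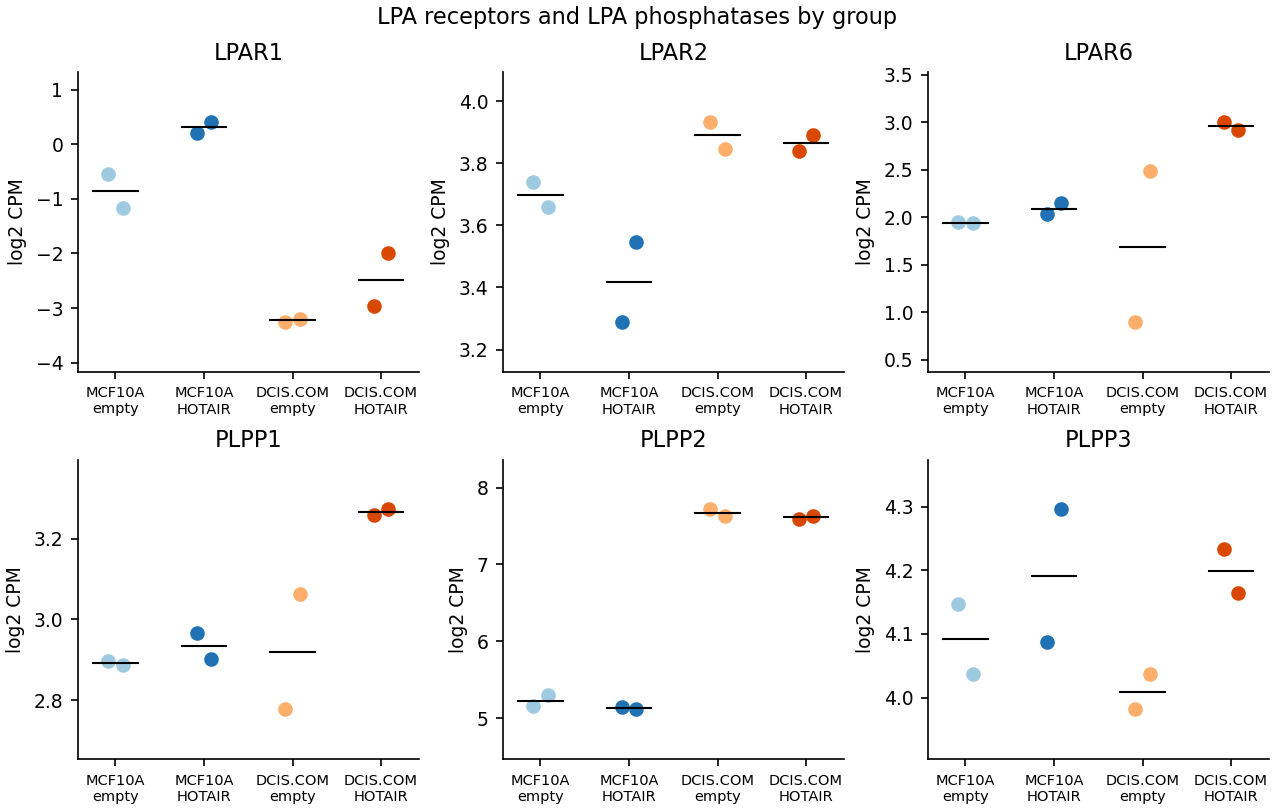
Log2 CPM of the 3 receptors and 3 phosphatases in each library (points) with the group means (lines), with a separate vertical scale for each gene. LPAR1 is low in DCIS.COM and PLPP2 is high there, and the 2 DCIS.COM pCDH-empty libraries stand far apart for LPAR6.

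LPAR1 (Entrez 1902, chromosome 9, 113635543 to 113800750, minus strand) is one of the classical, widely expressed LPA receptors. It had 19 and 10 reads in MCF10A pCDH-empty and 21 and 25 reads in MCF10A pCDH-HOTAIR, or 0.609 and 0.376 against 1.08 and 1.25 CPM. In DCIS.COM it had 1 and 1 reads with the empty vector and 2 and 6 reads with HOTAIR. In both lines the HOTAIR libraries lay above the empty-vector libraries, but 3 of the 4 DCIS.COM libraries were under their 3-read floor.

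In MCF10A the LPAR1 log2 fold change with HOTAIR was 1.16 (standard error 0.38, limma adjusted p = 0.523), and its unadjusted p was 0.0161. In DCIS.COM it was 0.74 (95% interval -0.14 to 1.62, limma adjusted p = 0.329). Neither passed the threshold, and on so few reads the DCIS.COM value was 0.26 without DCIS.COM pCDH-HOTAIR 2, 1.23 without DCIS.COM pCDH-HOTAIR 1 and 0.11 with 1 CPM in place of the prior. LPAR1 had over 0.5 CPM in 3 MCF10A libraries and in 0 DCIS.COM libraries, so it is in the table only through the line where it is high and its difference between the lines is a description without a p. That log2 fold change was -2.37 with the empty vector and -2.79 with HOTAIR, and with 1 CPM in place of the prior it was -0.52 and -0.96. The first of these is under the 1.5-fold limit, which ended the call. From the summed reads LPAR1 was 14.3-fold lower with the empty vector (counting interval 3.61 to 123) and 10.1-fold lower with HOTAIR (4.72 to 24.8).

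LPAR2 (Entrez 9170, chromosome 19, 19734464 to 19739739, minus strand) couples to several classes of G protein, and per kilobase of transcript it was the most abundant receptor of the set. It had 13.3 and 12.6 CPM in MCF10A pCDH-empty and 9.71 and 11.6 CPM in MCF10A pCDH-HOTAIR. Both HOTAIR libraries were below both controls, a log2 fold change of -0.28 (standard error 0.11, limma adjusted p = 0.615, unadjusted p = 0.0351). In DCIS.COM it had 15.2 and 14.3 CPM with the empty vector and 14.2 and 14.8 CPM with HOTAIR, and the groups overlapped (log2 fold change -0.02, 95% interval -0.28 to 0.23).

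Between the lines, LPAR2 was 1.36-fold higher in DCIS.COM with HOTAIR (log2 fold change 0.45, limma adjusted p = 0.00743), which is under the 1.5-fold limit. With the empty vector the log2 fold change was 0.19 (95% interval -0.06 to 0.45, limma adjusted p = 0.156).

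LPAR6 (Entrez 10161, chromosome 13, 48963703 to 49018840, minus strand) belongs to the P2Y-like branch of LPA receptors. It lies within the tumour suppressor gene RB1 on the opposite strand and shares 0 exon bases with it. In MCF10A it varied little, with 3.78 and 3.76 CPM in pCDH-empty and 4.03 and 4.35 CPM in pCDH-HOTAIR (log2 fold change 0.15, 95% interval -0.82 to 1.11). In DCIS.COM pCDH-empty it had 1.80 and 5.52 CPM, from 54 and 148 reads, and in DCIS.COM pCDH-HOTAIR it had 7.93 and 7.51 CPM.

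The DCIS.COM groups did not overlap for LPAR6, and the log2 fold change was 1.27 (standard error 0.42, 95% interval 0.31 to 2.23, limma adjusted p = 0.243, unadjusted p = 0.0162). Its size rested on the library DCIS.COM pCDH-empty 1. Without that library the log2 fold change was 0.48 (limma adjusted p = 0.169), and without DCIS.COM pCDH-empty 2 it was 2.06 (limma adjusted p = 3.63e-05). RB1 was also lowest in DCIS.COM pCDH-empty 1, at 46.6 CPM against 67.3 CPM in its replicate and 59.5 to 68.6 CPM in the other libraries. The part of that library in the LPAR6 result was tested only by leaving it out.

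Between the lines, the LPAR6 log2 fold change was -0.25 with the empty vector (95% interval -1.21 to 0.71). Without DCIS.COM pCDH-empty 1 it was 0.54 and without DCIS.COM pCDH-empty 2 it was -1.04, so its direction depended on which library was kept. With HOTAIR it was 0.87 (95% interval -0.09 to 1.83, limma adjusted p = 0.0985). Refits that left out a HOTAIR library gave 0.82 to 0.93, and leaving out an empty-vector library cannot change this value. LPAR6 passed the call there (limma adjusted p = 0.000123 and 0.000176) when either DCIS.COM pCDH-empty library was left out, although those libraries enter this comparison only through the spread shared by the groups.

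The receptor RNA was set on a common scale by dividing CPM by the length of the canonical transcript, with LPAR5 added from the other receptors. LPAR2 held 70.3% of the summed receptor RNA in MCF10A pCDH-empty, 64.6% in MCF10A pCDH-HOTAIR, 78.1% in DCIS.COM pCDH-empty and 63.9% in DCIS.COM pCDH-HOTAIR. LPAR6 held 18.6%, 23.0%, 16.9% and 30.8% in the same order, and in DCIS.COM pCDH-empty its share was 9.15% in one library and 24.6% in the other. LPAR5 held 9.94% and 9.02% in MCF10A and 4.88% and 5.05% in DCIS.COM, while LPAR1 held at most 3.33% in any library. The LPAR1 share was 0.0877% or less in the DCIS.COM pCDH-empty libraries. The receptor shares depend on the length used. The canonical transcript of LPAR6 has 1976 bases and all its exons together 4350, against 1786 and 2975 for LPAR2. Shares on the longer lengths were not computed.

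**Figure D3:**
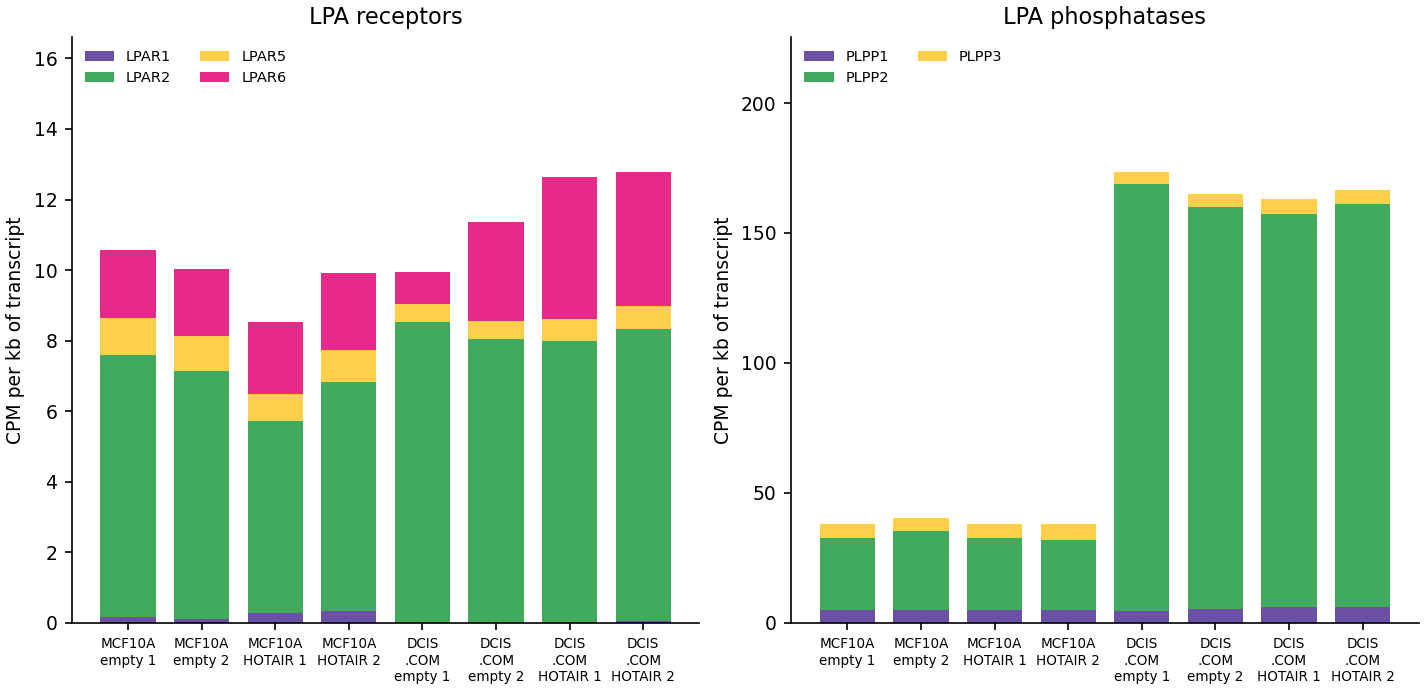
Receptor RNA (left) and phosphatase RNA (right) in each library, as CPM per kilobase of canonical transcript stacked by gene. LPAR2 forms most of every receptor bar, and the phosphatase bars are 37.9 to 40.4 in MCF10A and 163 to 173 in DCIS.COM, nearly all of the latter from PLPP2.

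PLPP2 (Entrez 8612, chromosome 19, 281040 to 291403, minus strand) showed the clearest difference of the set, and it was between the lines. It had 35.8 and 39.2 CPM in MCF10A pCDH-empty and 35.4 and 34.7 CPM in MCF10A pCDH-HOTAIR. In DCIS.COM it had 210 and 198 CPM with the empty vector and 194 and 198 CPM with HOTAIR. Every DCIS.COM library was far above every MCF10A library.

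PLPP2 was higher in DCIS.COM by a log2 fold change of 2.44 with the empty vector (95% interval 2.28 to 2.60, limma adjusted p = 5.23e-08). With HOTAIR it was higher by 2.48 (95% interval 2.32 to 2.64, limma adjusted p = 4.91e-08). These correspond to 5.43-fold and 5.58-fold. HOTAIR itself left small differences, with log2 fold changes of -0.10 in MCF10A (95% interval -0.26 to 0.07) and -0.06 in DCIS.COM (95% interval -0.22 to 0.11).

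PLPP1 (Entrez 8611, chromosome 5, 54720682 to 54830797, minus strand) shares 481 exon bases with MTREX on the opposite strand, and the strand setting of the counting is not given in the sources used here. It had 7.38 and 7.33 CPM in MCF10A pCDH-empty and 7.74 and 7.41 CPM in MCF10A pCDH-HOTAIR, a log2 fold change of 0.04 (95% interval -0.24 to 0.32). In DCIS.COM it had 6.79 and 8.28 CPM with the empty vector and 9.51 and 9.60 CPM with HOTAIR. Both HOTAIR libraries lay above the controls, with a log2 fold change of 0.35 (standard error 0.12, 95% interval 0.07 to 0.63, limma adjusted p = 0.250, unadjusted p = 0.0218). The lower control was DCIS.COM pCDH-empty 1, as for LPAR6.

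With HOTAIR, PLPP1 was 1.26-fold higher in DCIS.COM than in MCF10A (log2 fold change 0.33, limma adjusted p = 0.0408), under the 1.5-fold limit. That adjusted p ranged from 0.00927 to 0.149 when single libraries were left out. With the empty vector the log2 fold change between the lines was 0.03 (95% interval -0.25 to 0.31).

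PLPP3 (Entrez 8613, chromosome 1, 56960433 to 57110974, minus strand) shares 576 exon bases with another protein-coding gene on the same strand, which is not in the table. PLPP3 was nearly level over the 4 groups. Its means were 17.0 ± 0.914 and 18.2 ± 1.86 CPM in MCF10A without and with HOTAIR, and 16.0 ± 0.431 and 18.3 ± 0.625 CPM in DCIS.COM (SD, n = 2 each). Its log2 fold change with HOTAIR was 0.10 in MCF10A (95% interval -0.13 to 0.33) and 0.19 in DCIS.COM (95% interval -0.04 to 0.42). Between the lines it was -0.08 with the empty vector (95% interval -0.31 to 0.15) and 0.01 with HOTAIR (95% interval -0.22 to 0.24).

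Per kilobase of transcript, PLPP2 held 74.6% and 72.3% of the summed RNA of the 3 phosphatases in MCF10A without and with HOTAIR, and 94.2% and 92.9% in DCIS.COM. PLPP1 and PLPP3 held 12.2% and 13.2% in MCF10A pCDH-empty. In DCIS.COM pCDH-empty each held 2.90%. These shares depend on the length used. The canonical transcript of PLPP2 has 1279 bases and all its exons together 6958. For PLPP1 these lengths are 1542 and 1935 bases, and for PLPP3 3273 and 5272 bases. Shares on the longer lengths, where PLPP2 would hold less, were not computed.

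**Figure D4:**
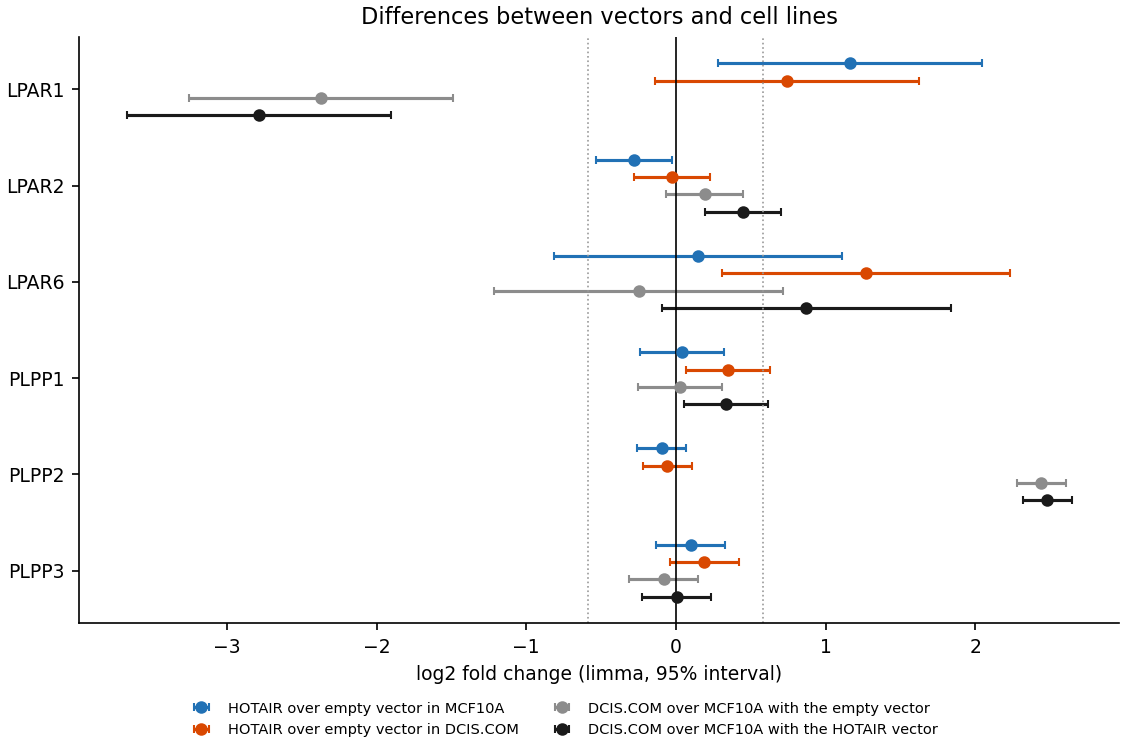
Log2 fold changes of the 6 members other than ENPP2 with 95% limma intervals, for HOTAIR over empty vector in each line and for DCIS.COM over MCF10A with each vector. Dotted lines mark a 1.5-fold change. PLPP2 between the lines lies at 2.44 and 2.48 with narrow intervals, and 8 of the 12 vector intervals include 0. LPAR1 between the lines lies at -2.37 and -2.79 with wide intervals. Those are not read as a test, since LPAR1 is in the table only through MCF10A.

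The rest of the pathway was read from 6 gene lists with 57 genes, of which 47 were in the table. With HOTAIR, limma called 0 of 47 in MCF10A, 0 of 47 in DCIS.COM and 0 of 47 for the difference between the lines, and 6, 9 and 11 of them had an unadjusted p under 0.05, beside 7.28%, 17.5% and 10.5% of all genes. Between the lines, 13 were called higher and 17 lower in DCIS.COM with the empty vector (63.8% of 47), and 15 higher and 14 lower with HOTAIR (61.7% of 47). Over all genes 46.3% and 43.7% were called. Of the 47 genes, 5 (GPAT2, ENPP5, ANKRD1, MYL9 and EGR1) exceeded 0.5 CPM in at least 2 libraries of only one line, which fixes their direction between the lines. Without them 10 were called higher and 15 lower with the empty vector and 12 higher and 12 lower with HOTAIR, of 42.

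Of the other LPA receptors, LPAR5 was lower in DCIS.COM with the empty vector. It had 2.82 and 2.67 CPM in MCF10A pCDH-empty against 1.36 and 1.42 CPM in DCIS.COM pCDH-empty (log2 fold change -0.95, limma adjusted p = 0.000869). With HOTAIR it was not called between the lines (log2 fold change -0.36, limma adjusted p = 0.0762).

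All 3 relatives of ENPP2 in the table, ENPP1, ENPP4 and ENPP5, were called higher in DCIS.COM with both vectors. Over all genes 46.3% and 43.7% were called in either direction. The 3 ectoenzymes share the fold of ENPP2, and ENPP1 acts on nucleotides. ENPP5 had 1 read in the 4 MCF10A libraries together and 357, 469, 715 and 642 reads in the 4 DCIS.COM libraries. With HOTAIR it was at least 258-fold higher in DCIS.COM, computed against 3 reads over the MCF10A group. With the empty vector the ratio to the single MCF10A read was 839 (counting interval 150 to 33191). The bases differ, so the values for the 2 vectors are not compared, and ENPP5 is in the table only through DCIS.COM. ENPP4, named after its values were seen, was 46.2-fold higher with the empty vector (counting interval 32.0 to 69.3) and 43.9-fold higher with HOTAIR (30.3 to 66.3). ENPP2 was lower in DCIS.COM with HOTAIR, and with the empty vector its counting interval between the lines included no difference.

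Of 10 genes listed as enzymes on routes to LPA, 2 were called higher and 5 lower in DCIS.COM with the empty vector. With HOTAIR, 3 were called higher and 4 lower. The list is broad, and not all of these enzymes release LPA themselves. Over all genes 46.3% and 43.7% were called, and the list medians were -0.49 and -0.38. The glycerol-3-phosphate acyltransferases GPAT3 and GPAT2, which make LPA inside the cell, led in opposite directions. GPAT3 had 5.39 and 4.32 CPM in MCF10A pCDH-empty and 76.2 and 72.4 CPM in DCIS.COM pCDH-empty (log2 fold change 3.92, limma adjusted p = 5.88e-08). GPAT2 had 46.6 and 47.4 CPM in MCF10A pCDH-empty and 0.333 and 0.485 CPM in DCIS.COM pCDH-empty (log2 fold change -6.63), and it is in the table only through MCF10A. With HOTAIR their log2 fold changes between the lines were 3.39 and -6.26.

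Of 7 LPA-consuming enzymes, 2 were called higher and 1 lower in DCIS.COM with either vector. Over all genes 46.3% were called with the empty vector and 43.7% with HOTAIR, and the list medians were 0.08 and 0.05. ACP6, a mitochondrial LPA phosphatase, was higher by log2 fold changes of 1.59 and 1.70. AGPAT4, which acylates LPA, was lower, with -2.59 and -2.44. Of 14 genes for G proteins and their effectors, 2 were called higher and 5 lower with the empty vector. With HOTAIR, 3 were called higher and 4 lower, beside the same shares of all genes. The list medians were -0.43 and -0.47. The kinase ROCK2, which acts on the actomyosin cytoskeleton, was higher, with log2 fold changes of 1.61 and 1.51. The inhibitory G protein subunit GNAI1 was lower, with -1.76 and -1.39.

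SRF and YAP are transcription factors, or cofactors of them, that respond to the state of the actin cytoskeleton, and 12 of 13 listed target genes were in the table. With HOTAIR, 11 of the 12 had a positive log2 fold change in MCF10A (median 0.18) and 2 of 12 in DCIS.COM (median -0.22), beside medians of all genes of -0.01 and 0.01. For the difference between the lines the median was -0.41 and 8 of 12 had an unadjusted p under 0.05, but 0 of 12 passed the adjusted threshold. Over all genes 10.5% had an unadjusted p under 0.05 there. In DCIS.COM pCDH-empty 1 some of these genes stood above the replicate, such as AMOTL2 with 149 against 117 CPM and CCN2 with 17.2 against 13.4 CPM. Without that library 3 of 12 were positive in DCIS.COM and the median was -0.22, and over all libraries left out singly it ranged from -0.28 to -0.22. MYL9, a myosin light chain named after its values were seen, had 2.73 and 2.67 CPM in MCF10A pCDH-empty and 4.90 and 5.65 CPM in MCF10A pCDH-HOTAIR. In DCIS.COM it had 0.499 and 0.373 CPM with the empty vector and 0.366 and 0.238 CPM with HOTAIR.

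Between the lines, 4 of the 12 target genes were called higher and 5 lower in DCIS.COM with each vector. Over all genes 46.3% and 43.7% were called, and the list medians were -0.02 and -0.27. The higher calls include ANKRD1 and EGR1, which are in the table only through DCIS.COM. The lower calls include MYL9, which is in it only through MCF10A, so the directions of these genes were fixed. ANKRD1, a YAP target, was 26.8-fold higher with the empty vector (counting interval 11.2 to 84.0) and 10.3-fold higher with HOTAIR (5.07 to 24.2), on 5 and 8 MCF10A reads, and it is in the table only through DCIS.COM. TAGLN, a smooth muscle actin-binding protein, was 12.0-fold lower (9.37 to 15.5) and 29.9-fold lower (22.8 to 40.0).

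**Figure D5:**
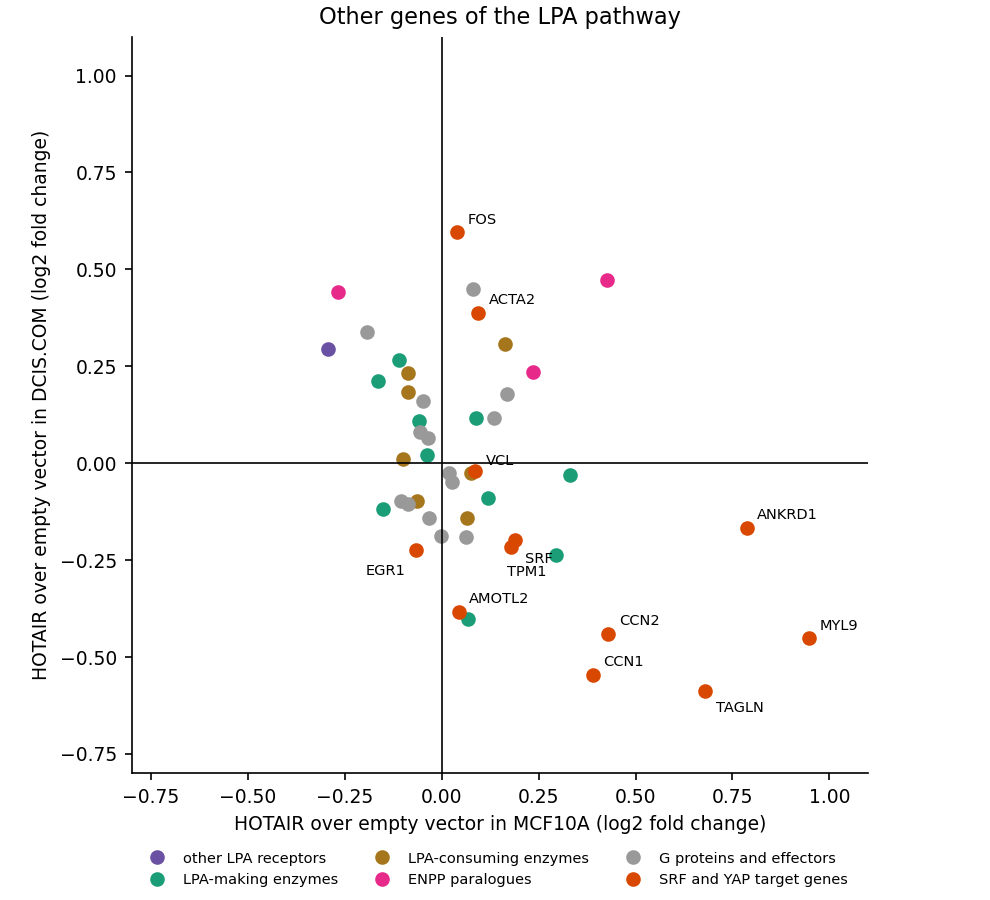
Log2 fold change with HOTAIR in MCF10A (horizontal) and DCIS.COM (vertical) for the 47 other pathway genes, coloured by list, with SRF and YAP target genes named. Of these, 11 of 12 lie right of 0 and 10 of 12 below 0, and no gene plotted passed the adjusted threshold in either line.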

How the data were processed

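RNA-seq of 8 libraries from 2 cell lines was used. Per the labels and the study's methods, the authors aligned paired reads to hg19 with Rsubread, counted them over UCSC known genes with featureCounts and normalised them with edgeR. The deposited values are log2 CPM with a prior of 0.0717 CPM. All 13771 genes exceeded 0.5 CPM in at least 2 libraries, and 343 genes have no symbol. After removal of the prior, 100% of the values checked in each library were whole reads within a tolerance of 0.05, which gave reads, depths of 19306864 to 34884841 and exact 95% Poisson intervals. The strand setting and prior are not given in the sources used here.

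Group means were fitted to all libraries with limma 3.58.1 (R 4.3.3) with a mean-variance trend. The authors' own method, a count test, was not run, and limma-voom on the recovered reads was the alternative on counts. Positions and canonical transcript lengths came from GENCODE 44 on the hg19 assembly, and ratios of summed reads were given conditional exact intervals. Members and lists were chosen with earlier results of these data known. Named were HOTAIR, each member, for each pathway list the called gene with the largest change in each direction between the lines, and the 5 genes closest to ENPP2. RB1, ENPP4, GNA13, AMOTL2, CCN2 and MYL9 were named after their values were seen. Alternatives were other priors, a mean CPM of at least 2, median centring, quantile normalization, no trend, a replicate block, limma-voom on whole reads, a fit per line and leaving out each library. The lists without single libraries or without genes over 0.5 CPM in one line only were added after seeing the data. Same-numbered libraries of different groups did not deviate together (r of deviations -0.029 to 0.036 over 12222 genes), so the numbers were not taken as pairs. 1 listed gene is not reported here. No sequence is shown.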

Additional observations from a re-analysis of the deposited data

Results flagged for a closer look

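Of 53 member and pathway genes examined, 11 had both HOTAIR libraries above both empty-vector libraries in one line and below them in the other. The difference of the HOTAIR effect between the lines was tested with limma for each, and it passed the adjusted threshold for 0 of the 11. The share of all genes with this pattern is not given here. The count is therefore descriptive, and whether it is unusual cannot be told. The values below are the log2 fold change in DCIS.COM minus that in MCF10A.

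The receptor LPAR5 differed by 0.588 (limma adjusted p = 0.445), with a negative log2 fold change in MCF10A and a positive one in DCIS.COM. GNA13, a G protein subunit, had the same signs and differed by 0.53 (limma adjusted p = 0.474). Its lowest control in DCIS.COM was again pCDH-empty 1, at 62.5 CPM against 94.5 CPM in the replicate.

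The other 9 genes had positive log2 fold changes in MCF10A and negative ones in DCIS.COM. AGK, a kinase that makes LPA, differed by -0.208 (limma adjusted p = 0.490) and GPAT3 by -0.53 (limma adjusted p = 0.413). The remaining 7 were targets of SRF and YAP or SRF itself. MYL9 differed by -1.4 (limma adjusted p = 0.302), TAGLN by -1.27 (limma adjusted p = 0.262) and CCN1 by -0.935 (limma adjusted p = 0.238). In DCIS.COM, MYL9 had only 15 and 10 reads with the empty vector and 13 and 8 reads with HOTAIR. Its ratio between the vectors there was 0.691, and the counting interval, 0.368 to 1.29, includes no difference. CCN2 differed by -0.87 (limma adjusted p = 0.419) and AMOTL2 by -0.426 (limma adjusted p = 0.430). TPM1 differed by -0.396 (limma adjusted p = 0.389) and SRF by -0.387 (limma adjusted p = 0.431).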

How the results depend on the processing

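With the replicate number as a block, the members called were again 0, 0, 0, 2 and 2 over the 5 comparisons, and genes called in the whole table were 2 in MCF10A, 20 in DCIS.COM and 0 for the difference between the lines. Between the lines with the empty vector, 1 member (PLPP2) was called with 1 CPM in place of the prior, and with either vector 1 member was called at a mean CPM of at least 2, which removes LPAR1 from the table. With single libraries left out, the members called were 0 to 1 in DCIS.COM and 0 to 2 for the difference between the lines, the upper values coming without DCIS.COM pCDH-empty 2 (LPAR6 in both, PLPP1 in the latter), and 2 to 3 in each comparison of the lines. Small log2 differences changed sign in those refits, and the cause was not tested. PLPP3 ranged from -0.00419 to 0.203 in MCF10A and LPAR2 from -0.067 to 0.0179 in DCIS.COM. For the difference between the lines, PLPP2 ranged from -0.0273 to 0.105, PLPP3 from -0.0144 to 0.193 and LPAR1 from -0.905 to 0.0645. Between the lines, LPAR6 ranged from -1.04 to 0.54 and PLPP1 from -0.11 to 0.17 with the empty vector, and PLPP3 from -0.097 to 0.11 with HOTAIR. ENPP2 stayed between 1.94 and 2.50 in MCF10A and between 1.2 and 2.10 in DCIS.COM. Calls in the whole table moved far more, from 1 to 51 genes in MCF10A, from 1 to 1403 in DCIS.COM and from 0 to 4414 for the difference between the lines. Of the other alternatives, those counts were 1 to 6, 0 to 20 and 0 to 10. At 2 to 35 reads in a library, the level of ENPP2 is limited by depth.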
